A study of Homo sapiens with 15 samples.

Results

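The CC chemokine genes CCL2, CCL3, CCL3L3, CCL5 and CCL20 were followed on 15 Illumina HumanHT-12 bead arrays of MDA-MB-436, a triple-negative line of human breast cancer cells without functional BRCA1. All probes annotated to these symbols were taken, 6 of the 48105 probes with complete signals, and all 6 passed the filter on dim probes. CCL5 had 2 probes and the other genes 1 each, so that the chemokines made up 5 of the 12302 genes tested. They had been chosen from their log2 differences between AG014699 alone and DMSO and between its doses, so their values in these 3 comparisons are given as a description without a test.

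The cells had been kept for 7 days in the solvent DMSO, in AG014699 at 10 nM, in AG014699 at 100 nM, in LY294002, or in LY294002 added to 100 nM AG014699 (the combination). PARP1, an enzyme of DNA break repair, is the target of AG014699 (rucaparib), and PI3K, a lipid kinase downstream of growth factor receptors, is that of LY294002. The dose of LY294002 is not given in the sources used here. Each group held 3 arrays, which the labels call triplicates without naming separate cultures; a p-value here measures only the spread of such arrays, and that spread may be technical. All groups were the same cell line, and no untreated cells without solvent were among the arrays. In RNA from whole cultures, fewer cells of a type and less RNA per cell cannot be told apart.

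CC chemokines are small secreted proteins that attract leukocytes by binding G protein-coupled receptors, and their names refer to a pair of adjacent cysteines. CCL2 attracts monocytes through CCR2, CCL3 and CCL5 attract monocytes and T cells through receptors that include CCR1, and CCL20 attracts CCR6-bearing T cells and dendritic cells. CCL3L1 and CCL3L3 are near-identical copies of CCL3, whose number varies between genomes. Carcinoma cells can make several of these proteins, and the transcription factor NF-kB is a known activator of their genes.

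Upstream sequences are shown for CCL3, CCL3L3 and CCL20, whose signals stood far above DMSO in every group given AG014699. The promoter sequences used here covered these 3 of the 5 genes and held no entry for CCL2 and CCL5. Start sites are those of RefSeq on GRCh38.p14, and the 250 bases before each start are printed 5′ to 3′ on the strand of the gene. Capitals mark the match to a searched motif, C/EBP in CCL3 and CCL3L3 and the kappa-B consensus in CCL20.
CCL3, chr17:36090144-36090393, minus strand: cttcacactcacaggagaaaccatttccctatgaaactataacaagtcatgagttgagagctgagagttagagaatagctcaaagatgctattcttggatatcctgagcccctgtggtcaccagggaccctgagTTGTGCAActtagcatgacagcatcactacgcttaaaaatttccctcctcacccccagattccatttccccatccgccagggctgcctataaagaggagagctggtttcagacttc
CCL3L3, chr17:36196759-36197008, minus strand: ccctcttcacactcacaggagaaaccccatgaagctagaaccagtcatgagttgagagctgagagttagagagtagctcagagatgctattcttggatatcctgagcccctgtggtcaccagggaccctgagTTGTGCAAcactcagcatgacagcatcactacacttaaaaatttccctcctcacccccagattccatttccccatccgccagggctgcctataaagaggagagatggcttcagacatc
CCL20, chr2:227813592-227813841, plus strand: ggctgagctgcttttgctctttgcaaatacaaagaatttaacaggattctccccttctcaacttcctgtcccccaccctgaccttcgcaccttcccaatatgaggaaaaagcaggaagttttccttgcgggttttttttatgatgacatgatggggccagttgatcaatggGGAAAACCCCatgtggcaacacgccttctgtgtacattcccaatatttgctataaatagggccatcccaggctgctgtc
The windows of CCL3 and CCL3L3 were 91.4% identical when aligned, with 10 mismatches and 12 gap bases, whereas those of CCL3 and CCL20 were 46.6% identical. The C/EBP match, TTNCNNAA on the opposite strand, lay 116 to 109 bases before the start in CCL3 and 118 to 111 bases before it in CCL3L3. The kappa-B match of CCL20 lay 79 to 70 bases before the start and read GGGGTTTTCC on the opposite strand. Among 35116 annotated windows of this length 33.2% held the C/EBP motif and 5.21% the kappa-B consensus. AP-1 (TGANTCA, in 6.57% of windows), the interferon-stimulated response element (in 3.02%) and FOXO (TGTTTAC, in 2.98%) were searched on both strands as well and had no match in the 3 windows. CCL3 lies between CCL18 and CCL4 in this annotation, CCL3L3 next to CCL4L2, and CCL2 next to CCL7.

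CCL20, the ligand of CCR6, responded to both drugs and was highest at the lower dose of AG014699. All levels below are log2 signals after background correction and quantile normalization. On the DMSO arrays CCL20 stood at 9.80, 9.73 and 9.905. At 10 nM AG014699 it stood at 12.37, 12.65 and 12.63, and at 100 nM at 11.99, 11.87 and 11.90. LY294002 gave 8.58, 8.33 and 8.64, and the combination 11.25, 11.30 and 11.36. The order was 10 nM, 100 nM, combination, DMSO and LY294002, and no neighbouring groups overlapped. The difference from DMSO was 2.73 on the log2 scale at 10 nM (SE 0.12, a 6.65-fold signal) and 2.10 at 100 nM (SE 0.12, 4.30-fold), so that the higher dose stood 0.63 below the lower one (difference -0.63, 95% interval -0.89 to -0.37). Of all genes tested 2.37% passed an adjusted p under 0.05 in either direction at 10 nM against DMSO, 21.5% at 100 nM against DMSO and 9.58% between the doses. By size of difference CCL20 was the fourth highest gene of 12302 at 10 nM, and number 39 from the top at 100 nM.

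CCL3 encodes the macrophage inflammatory protein 1 alpha, and its level followed the dose of AG014699. The DMSO arrays gave 6.495, 6.39 and 6.54, the 10 nM arrays 8.84, 8.92 and 8.84, and the 100 nM arrays 10.10, 10.09 and 9.71. With LY294002 the probe stood at 6.62, 6.20 and 5.61, and with the combination at 9.03, 8.68 and 8.37. The 100 nM arrays lay above all others, the combination overlapped the 10 nM arrays, and LY294002 overlapped DMSO. CCL3 was higher than in DMSO by 2.39 at 10 nM and by 3.49 at 100 nM (SE 0.22 each), or 5.24-fold and 11.3-fold. Without background correction CCL3 was 3.12-fold and 6.14-fold higher than in DMSO at the 2 doses, and CCL3L3, described next, 3.28-fold and 7.29-fold. The 100 nM level exceeded the 10 nM level by 1.10 (95% interval 0.64 to 1.57).

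CCL3L3, a copy of CCL3 that encodes nearly the same protein, gave the same order of doses on its own probe. Its levels were 6.54, 6.39 and 6.90 in DMSO, 9.02, 9.13 and 8.94 at 10 nM, and 10.41, 10.31 and 10.21 at 100 nM. LY294002 gave 6.40, 6.385 and 6.30, and the combination 9.09, 9.05 and 9.12. As for CCL3, the 100 nM arrays stood apart at the top, the combination overlapped 10 nM, and LY294002 overlapped DMSO. The differences from DMSO were 2.42 at 10 nM and 3.70 at 100 nM (SE 0.13 each), that is, 5.35-fold and 13.02-fold. CCL3L3 and CCL3 were the third and the fifth highest genes by size of difference at 100 nM.

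The probes of CCL3 and CCL3L3, and those of the third copy CCL3L1, are annotated to different transcripts, but the copies may share RNA that each probe reads, so their values are not independent measurements. Both CCL3L1 probes moved in parallel with them, which was looked at with the CCL3 results known. The brighter CCL3L1 probe had group means of 6.08 in DMSO, 7.95 at 10 nM, 9.13 at 100 nM, 5.62 in LY294002 and 7.91 in the combination. The dimmer one was detected on 1 DMSO array and no LY294002 array, and its difference between 100 nM and DMSO was 2.88 against 3.04 for the brighter one.

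**Figure D1:**
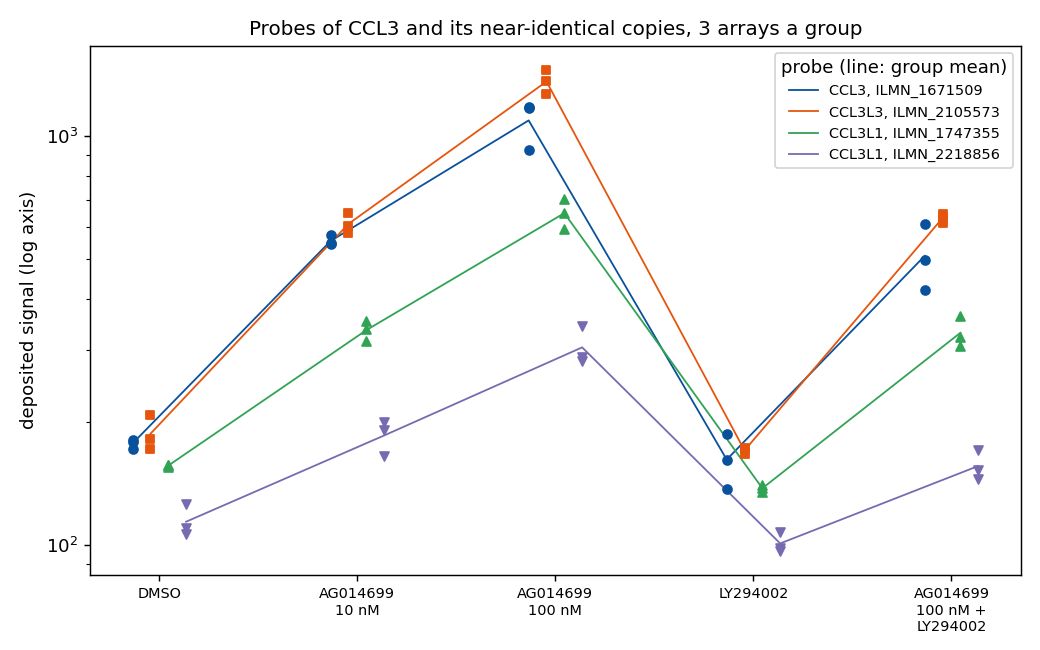
Deposited signals (log axis) of the probes of CCL3, CCL3L3 and CCL3L1 in the 5 groups; each point is 1 array and lines join group means. All 4 probes are highest on the 3 arrays of 100 nM AG014699, intermediate at 10 nM and in the combination, and lowest in DMSO and LY294002.

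CCL5, a chemoattractant of T cells and monocytes known as RANTES, differed less between the groups. On the brighter of its 2 probes the DMSO arrays gave 10.66, 10.50 and 10.93, the 10 nM arrays 11.17, 11.53 and 11.83, and the 100 nM arrays 11.47, 11.38 and 11.62. LY294002 gave 11.02, 11.04 and 11.04, and the combination 11.71, 11.61 and 11.595. All 9 arrays with AG014699 lay above all 6 without it, while the 3 groups with AG014699 overlapped one another. CCL5 was higher than in DMSO by 0.81 at 10 nM and by 0.79 at 100 nM (SE 0.16 each), or 1.76-fold and 1.73-fold, and the doses differed by -0.02 (95% interval -0.36 to 0.32). The other CCL5 probe ranged from 9.02 to 9.60 in DMSO, from 9.72 to 10.08 at 10 nM, from 9.87 to 10.34 at 100 nM, from 9.22 to 9.71 in LY294002 and from 9.93 to 10.38 in the combination. It too separated the arrays with AG014699 from the rest, with differences from DMSO of 0.62 and 0.80, but its LY294002 and DMSO arrays overlapped, and its 100 nM mean lay 0.17 above that of 10 nM.

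CCL2, the monocyte chemoattractant that binds CCR2, went the other way at the higher dose. It stood at 7.72, 7.86 and 7.81 in DMSO and at 8.03, 8.04 and 8.42 at 10 nM, but at 5.41, 4.73 and 5.48 at 100 nM. LY294002 gave 7.28, 7.00 and 6.83, and the combination 4.98, 4.94 and 4.83. The 10 nM arrays lay above DMSO, the LY294002 arrays below it, and both groups with 100 nM AG014699, which overlapped each other, below all the rest. At 100 nM the probe was detected above background on 2 of 3 arrays and in the combination on none, with deposited signals of 113.6 to 117.9 there against 300.3 to 320.6 in DMSO. The difference from DMSO was 0.37 at 10 nM (SE 0.19, 95% interval -0.03 to 0.77) and -2.59 at 100 nM (SE 0.19, 6.01-fold lower), and between the doses -2.96. The size at 100 nM depended on how background was treated, being -1.32 on the signals as deposited and -1.60 with normexp. In the authors' deposited table of log2 values it was -1.23. That is the value of the deposited signals without array 2 of 100 nM AG014699, on which CCL2 was not detected. By size CCL2 was the fifth lowest gene at 100 nM against DMSO and the third lowest between the doses.

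**Figure D2:**
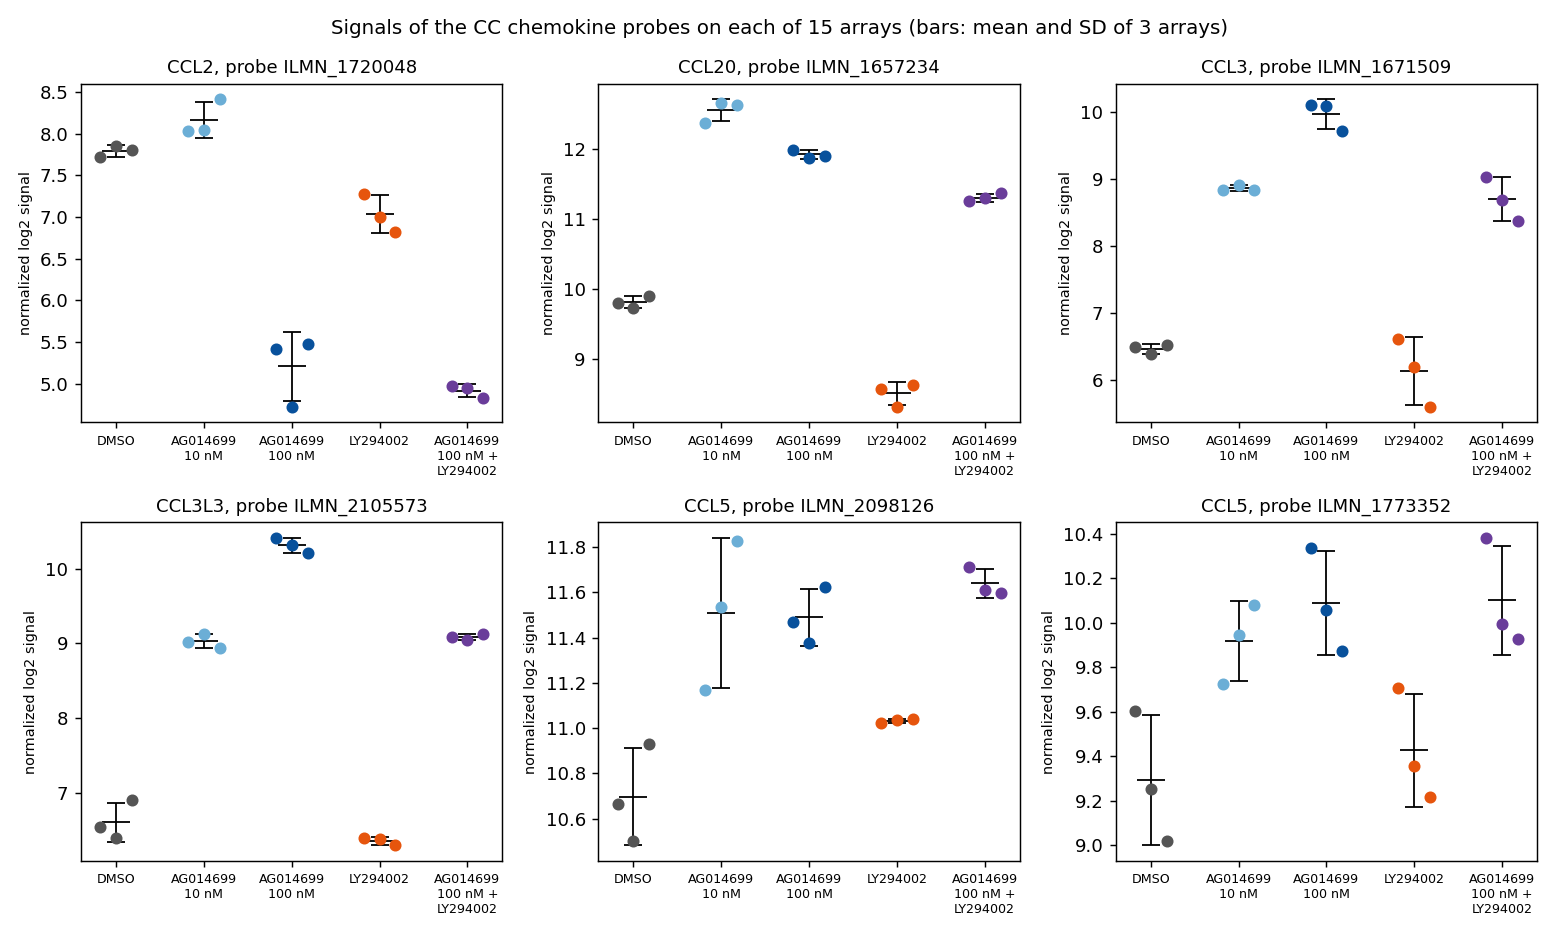
Normalized log2 signal of each of the 6 chemokine probes on 15 arrays by treatment group; points are arrays, horizontal bars the mean and error bars the SD of 3 arrays. CCL3, CCL3L3 and CCL20 are higher in the 3 groups with AG014699 than in DMSO and LY294002, and CCL5 shows the same with smaller steps. CCL2 is lowest in both groups with 100 nM AG014699, and its LY294002 arrays lie below its DMSO arrays.

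LY294002 alone lowered CCL20 and left the other 4 genes short of the threshold. CCL20 fell by 1.30 against DMSO (difference -1.30, SE 0.12, 2.46-fold lower, limma adjusted p = 5.49e-05), and was the twelfth lowest of all genes by size. It was the 1 chemokine of 5 that passed, where 0.61% of all genes were called lower. An unadjusted p under 0.05 was found for 2 of the 5, and for 1654 of all 12302 genes. The DMSO arrays are among those the genes were chosen on, so these counts are not independent support. CCL2 lay 0.76 lower (difference -0.76, 95% interval -1.16 to -0.36, adjusted p = 0.0683). Its adjusted p ranged from 0.0134 to 0.134 over the other ways of processing. In the fits that left out arrays it ranged from 0.0187 to 0.391, and 17 of 18 missed the threshold. The lowest value came without array 2 of 100 nM AG014699, the array on which CCL2 was not detected. CCL3 differed by -0.33 (95% interval -0.79 to 0.13, adjusted p = 0.547), CCL3L3 by -0.25 (-0.53 to 0.03, adjusted p = 0.435) and CCL5 by 0.33 (-0.002 to 0.67, adjusted p = 0.374).

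The combination was compared with LY294002 alone, which shares no array with the comparisons the genes were chosen on. Its p-values still use a spread pooled over all 15 arrays, and the genes were chosen with earlier results of these data known. All 5 chemokines differed: CCL20, CCL3, CCL3L3 and CCL5 rose and CCL2 fell. CCL20 rose by 2.79 (SE 0.12, 6.90-fold, adjusted p = 4.85e-09), CCL3L3 by 2.73 (SE 0.13, 6.62-fold, adjusted p = 7.59e-09) and CCL3 by 2.55 (SE 0.22, 5.86-fold, adjusted p = 1.65e-06). CCL5 rose by 0.61 (SE 0.16, 1.52-fold, adjusted p = 0.0147), and its other probe by 0.68 (adjusted p = 0.0253 over all probes). CCL2, detected on no combination array, fell as well (adjusted p = 2.48e-06). After background correction it was at least 3.92-fold lower, measured against the lowest signal of probes detected on the same arrays, but without background correction the signals were 1.89-fold lower, so the size rests on that correction. The same holds for CCL3 and CCL3L3, which were 3.13-fold and 3.70-fold higher without it. In this comparison 9.42% of all genes were called higher and 8.86% lower. By size CCL20, CCL3L3 and CCL3 were numbers 6, 7 and 12 from the top of 12302 genes. The call of CCL5 ended without combination array 1 (adjusted p = 0.0521) and when the arrays numbered 1, 2 or 3 were dropped from every group (0.0833, 0.141 and 0.0526).

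Against 100 nM AG014699 alone, the combination held less CCL3, CCL3L3 and CCL20 signal. CCL3 fell by 1.27 (difference -1.27, SE 0.22, adjusted p = 0.021), CCL3L3 by 1.22 (difference -1.22, SE 0.13, adjusted p = 0.000357) and CCL20 by 0.61 (difference -0.61, SE 0.12, adjusted p = 0.049). These are levels 2.42-fold, 2.34-fold and 1.53-fold lower, and CCL3 and CCL3L3 were the seventh and the eleventh lowest genes by size. Of all genes 0.228% were called lower. The 100 nM arrays are among those the genes were chosen on, and a gene chosen as high on them is favoured to be lower elsewhere, so the 3 calls of 5 are not independent support. CCL2 did not pass (adjusted p = 0.571), and no size is given because the combination arrays did not detect it. CCL5 differed by 0.15 (-0.19 to 0.49, adjusted p = 0.749). CCL20 and CCL3L3 lay lower on each combination array than on each 100 nM array, and so did CCL3, whose highest combination array stood at 9.03 and lowest 100 nM array at 9.71.

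The calls against 100 nM AG014699 depended on single arrays. Without array 1 or 2 of the 100 nM group, or array 2 or 3 of the combination, 1 of the 5 chemokines was called, which was CCL3L3, and CCL3 then had an adjusted p of 0.0774, 0.0773, 0.0909 and 0.117. With the arrays numbered 1 or 2 dropped from every group none was called, and CCL3L3 had an adjusted p of 0.0757 and 0.124. CCL20 missed the threshold in 14 of 18 fits that left out arrays, including fits without an array of DMSO or of 10 nM AG014699, at an adjusted p of up to 0.497, while its difference stayed between -0.65 and -0.56.

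In the combination against DMSO, CCL3, CCL3L3, CCL5 and CCL20 rose and CCL2 fell; the DMSO arrays are those of the comparisons that chose the genes. CCL3L3 rose by 2.48 (SE 0.13, adjusted p = 1.22e-08), CCL3 by 2.22 (SE 0.22, adjusted p = 5.3e-06), CCL20 by 1.49 (SE 0.12, adjusted p = 8.66e-07) and CCL5 by 0.94 (SE 0.16, adjusted p = 0.000688). CCL2 was at least 6.65-fold lower after background correction (adjusted p = 7.4e-08) and 2.67-fold lower without it. CCL3 and CCL3L3 were 2.84-fold and 3.39-fold higher without background correction, against 4.66-fold and 5.57-fold with it. Of all genes 10.4% were called higher and 9.54% lower. The call of CCL5 ended when the arrays numbered 2 were dropped (adjusted p = 0.0523).

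The interaction sets the change by LY294002 at 100 nM AG014699 against its change without AG014699. The DMSO and 100 nM arrays used in it are among those the genes were chosen on. Of the 5 chemokines 0 passed in limma, and of all genes 0.00813% passed, which was INSIG1 alone. An unadjusted p under 0.05 was found for 3 of the 5, and for 889 of all 12302 genes. For CCL20 the interaction was 0.68 (SE 0.17, adjusted p = 0.443), since LY294002 lowered it by 1.30 without AG014699 and by 0.61 with it. CCL3 had an interaction of -0.94 (SE 0.31, adjusted p = 0.557) and CCL3L3 of -0.98 (SE 0.19, adjusted p = 0.182), with a larger decrease in the presence of AG014699. For CCL5 it was -0.18 (95% interval -0.66 to 0.29), and for CCL2, not detected in the combination, no size is given (adjusted p = 0.729). Without background correction CCL3 and CCL3L3 passed in limma, at an adjusted p of 0.0335 and 0.00205 with quantile normalization and interactions of -0.97 and -0.98. Their differences between LY294002 and DMSO were then -0.14 and -0.13. Both probes were dim there, with mean deposited signals of 177.4 and 187.3 in DMSO and 162 and 170.6 in LY294002. The part of background in these interactions was not tested.

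**Figure D3:**
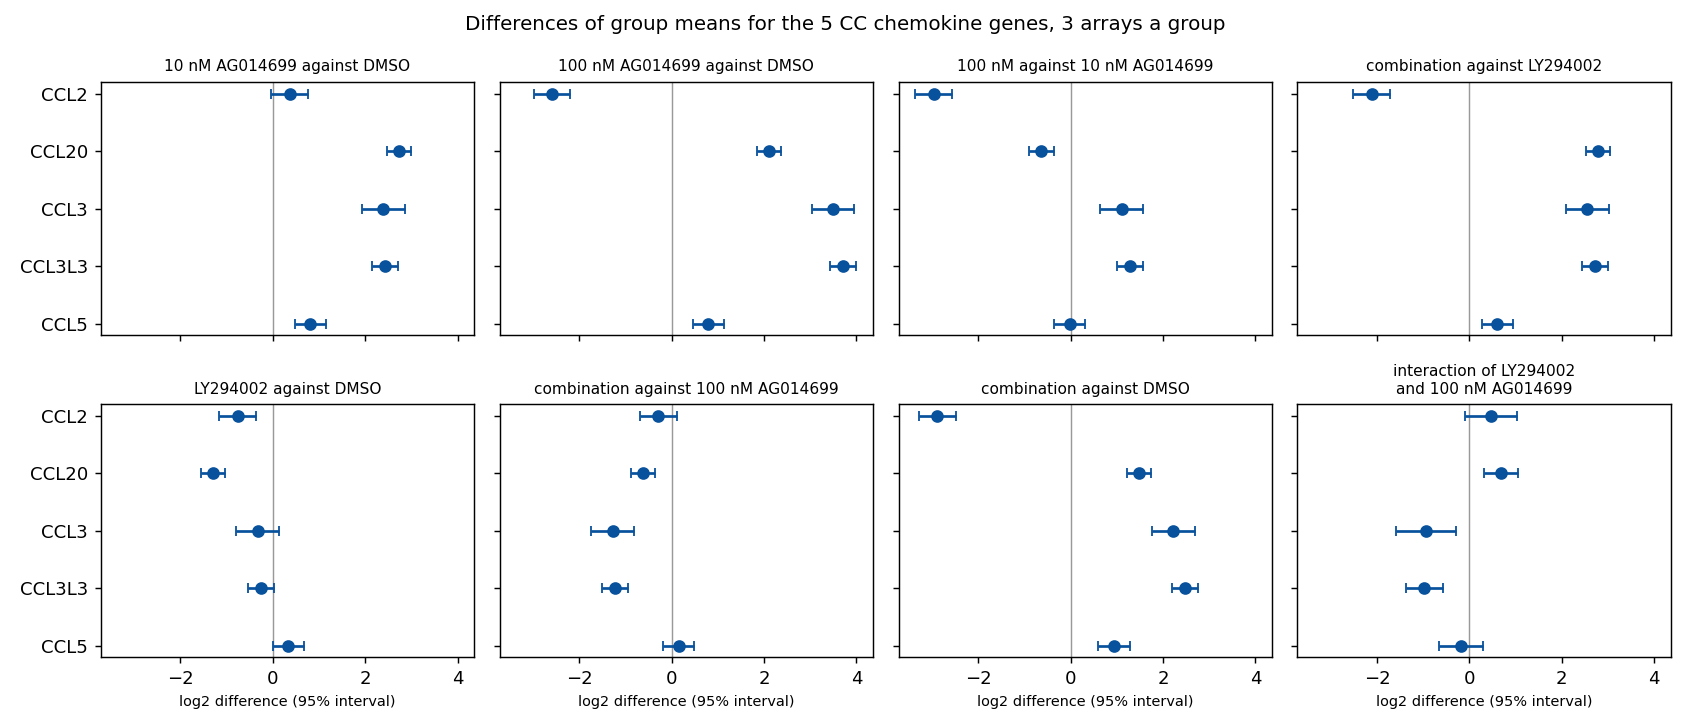
Differences of group means on the log2 scale (x axis) for the 5 chemokine genes in 8 comparisons; points are estimates from the fit to 15 arrays and bars 95% intervals. CCL2 was not detected in the combination, so its points there show fitted values and no size. Intervals of CCL3, CCL3L3 and CCL20 lie above 0 in every panel that adds AG014699 to DMSO or LY294002, and below 0 where the combination is set against 100 nM AG014699.

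Of 28 CC chemokine ligand genes listed, 9 had a probe named after them and 8 passed the filter, the 5 above with CCL3L1, CCL4L1 and CCL26. CCL3L1 fell in the combination against 100 nM AG014699 by 1.21 (difference -1.21, SE 0.13, adjusted p = 0.000357) and rose against LY294002 by 2.30 (adjusted p = 2.18e-08). CCL4L1, a copy of the chemokine gene CCL4, and CCL26, a ligand of the eosinophil receptor CCR3, passed in 0 of the 8 comparisons with limma. CCL4L1 lay 0.95 above DMSO at 10 nM (SE 0.26, adjusted p = 0.0723) and 0.17 above it at 100 nM (adjusted p = 0.678), with mean levels from 5.19 to 6.14 in the groups that detected it and no detection in LY294002. CCL26 stood between 4.60 and 4.98, near background. It was detected on 2 arrays of 100 nM AG014699, on 1 of the combination and on no array of the other groups.

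Of 15 listed receptors of CC chemokines 5 were measured, and in limma 0 of them passed in any of the 8 comparisons. Of all genes 0.00813% to 21.5% passed in these comparisons. At most 2 of the 5 had an unadjusted p under 0.05, at 10 nM against DMSO, where 1555 of all 12302 genes did. CCR2, the receptor of CCL2, was detected on 2 of 3 DMSO arrays and on no array of either dose of AG014699 alone. It was detected on 1 LY294002 array and on 2 combination arrays, and its group means, 4.78 to 5.37, lay near background. At 100 nM against DMSO CCR2 did not pass (adjusted p = 0.0519). CCR8, CCR10 and the scavenging receptor ACKR3 had means between 4.64 and 6.24. The probe of CCR6, the receptor of CCL20, was bright in all groups, with means from 14.19 to 14.44; whether it reads other RNA was not tested. CCR1, a receptor of CCL3 and CCL5, was not among the genes measured.

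**Figure D4:**
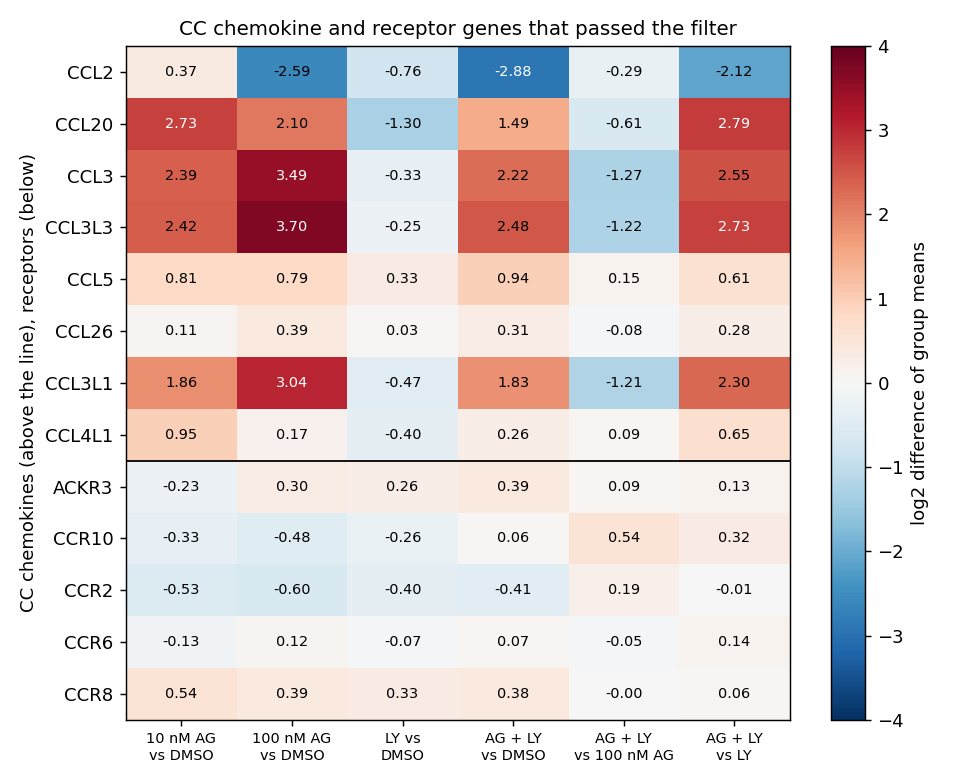
Log2 differences of group means (colour and number) for the 8 CC chemokine and 5 receptor genes that passed the filter, in 6 comparisons; AG stands for AG014699 and LY for LY294002. Values set against a group that detected a probe on no array, such as CCL2 in the combination, are fitted values and no sizes. The receptor rows stay within 0.60 of 0, and the strong colours lie in CCL2, CCL3, CCL3L1, CCL3L3 and CCL20.

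Of 12 listed proteases that trim CC chemokines 9 were measured. MMP1, the interstitial collagenase, rose from 5.90 in DMSO to 7.30 at 10 nM (adjusted p = 0.0165) and 10.21 at 100 nM (difference 4.32, SE 0.29, adjusted p = 8.78e-08), and it did not pass between the combination and 100 nM AG014699 (difference -0.23, adjusted p = 0.802). MMP3, a stromelysin, rose by 2.02 at 100 nM (SE 0.25, adjusted p = 5.58e-05). DPP4, which removes amino-terminal dipeptides from chemokines such as CCL5, fell by 0.79 at 100 nM (difference -0.79, SE 0.24, adjusted p = 0.0272) and by 1.26 in the combination against DMSO (difference -1.26, adjusted p = 0.00159). FAP, a related peptidase, was detected on no LY294002 array and was at least 1.65-fold lower there than in DMSO (adjusted p = 0.0286). At 100 nM against DMSO 3 of the 9 rose, 2 fell and 4 did not pass, with a median difference of 0.25 beside -0.03 over all genes, of which 10.7% were called higher and 10.8% lower.

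Among 12 measured genes of NF-kB subunits and feedback inhibitors, 3 rose at 10 nM against DMSO, 0 fell and 9 did not pass, with a median difference of 0.16 beside -0.01 over all genes, of which 1.74% were called higher. NFKBIZ, an atypical inhibitor that also co-activates NF-kB targets, rose by 1.503 (SE 0.11, adjusted p = 1.13e-06), TNFAIP3, a feedback inhibitor, by 1.14 and NFKBIB, which retains NF-kB in the cytoplasm, by 0.88. At 100 nM 5 rose, 1 fell and 6 did not pass, with a median of 0.46 beside -0.03 over all genes, of which 10.7% were called higher and 10.8% lower; NFKBIB rose by 2.01 (adjusted p = 1.76e-06), and the co-regulator BCL3 fell by 0.97 (difference -0.97, adjusted p = 0.000737). Between the doses 1 gene was higher at 100 nM, NFKBIB by 1.13 (adjusted p = 0.000997), and 1 lower, NFKBIZ (difference -0.68, SE 0.11, adjusted p = 0.00169), where 4.71% of all genes were called higher and 4.88% lower. Of the 5 subunit genes RELB rose by 0.72 (adjusted p = 0.0214) and NFKB2 by 0.56 (adjusted p = 0.0314) at 100 nM against DMSO, and NFKB1, REL and RELA did not pass, at differences of 0.04, 0.09 and 0.51. In LY294002 against DMSO and in the combination against 100 nM AG014699, 0 of the 12 passed with limma. Of all genes 1.12% and 0.333% passed there. An unadjusted p under 0.05 was found for 3 and 4 of the 12, and for 1654 and 1486 of all 12302 genes.

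Chemokines are held on cell surfaces by heparan sulfate proteoglycans, of whose core genes 7 of 9 listed were measured. At 100 nM against DMSO 4 fell and 3 did not pass, with a median of -0.70 beside -0.03 over all genes, of which 10.8% were called lower. GPC1 was at -1.01 (SE 0.24), GPC6 at -0.87 (SE 0.20), SDC2 at -0.76 (SE 0.18) and GPC4 at -0.70 (SE 0.17). In the combination against 100 nM AG014699 0 of the 7 passed with limma, where 0.333% of all genes did. Below 0.05 unadjusted were 0 of the 7, and 1486 of all 12302 genes.

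The genes whose levels ran most like a chemokine over the 15 arrays are given as a description, since all points share the treatment groups. CCL20 was most like the interleukin 1 beta gene IL1B (Pearson r = 0.98), the granulocyte colony-stimulating factor gene CSF3 (0.98) and the neutrophil chemoattractant gene CXCL8 (0.98), then PI3 and SLC25A24 (0.97 each). CCL3 and CCL3L3 correlated with each other at 0.99, and outside their own copies both were most like G0S2, a lipase inhibitor gene (0.99 each), LAMB3 and IL24. CCL2 was most like the epithelial transcription factor gene ELF3 (0.96), FERMT2, the serum amyloid gene SAA2, SLC10A7 and the calprotectin subunit gene S100A9 (0.95). CCL5 had lower values, led by the immediate early gene NR4A2 (0.92), BTG1, SLC35F1, DUSP1 and NT5E (0.89).

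The arrays were close to each other, with 18971 to 20808 probes detected and correlations of 0.979 to 0.992 within and 0.959 to 0.988 between groups across the tested genes, which are not independent replicates. Of the markers expected in this line VIM and CD44 were detected on all 15 arrays at mean levels of 13.36 and 13.14, but SPARC on 2 arrays. The estrogen receptor gene ESR1, expected to be low in the line, was detected on 3 arrays. CDH1 and PGR, also expected to be low, had no named probe. The epithelial genes EPCAM, KRT8 and KRT18 were also detected on all 15. Leukocytes are a main source of CCL3 and CCL5, and 4 of 11 leukocyte markers were measured, CD14, CD68, ITGAM and AIF1. PTPRC, CD3E, ITGAX, LYZ, MS4A1 and CD163 had no named probe. Their summed linear level was 2168 to 2342 in DMSO, 3197 to 4081 at 10 nM, 3753 to 4656 at 100 nM, 1821 to 2082 in LY294002 and 3833 to 4787 in the combination. CD68, a lysosomal protein gene, rose by 1.21 at 100 nM (adjusted p = 2.9e-05), while CD14 fell by 1.03 (difference -1.03, adjusted p = 0.000129) and AIF1 did not pass (difference -0.01). ITGAM, an integrin gene detected on no DMSO array and on all 3 at 100 nM, was at least 1.25-fold higher there (adjusted p = 0.0174) and at least 1.54-fold higher in the combination than in DMSO (adjusted p = 0.00183). Of 4 endothelial markers 1, PECAM1, had a named probe, which did not pass the filter, and the 5 fibroblast markers had none, so these cell types were hardly covered. The part of these markers in the chemokine differences was not tested.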

How the data were processed

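RNA of 15 samples of MDA-MB-436 was isolated and made into biotinylated cRNA with Qiagen and Ambion kits, per the labels. Per the file headers, the authors deposited an intensity and a detection p-value of every probe (48107 per array). The deposited intensity values had medians of 114 to 115 and 75th percentiles of 193.9 to 195.4 on all arrays, a common scale set before deposit; array 1 of 100 nM AG014699 held whole numbers only. A second deposited table holds log2 values that matched, by probe, the log2 intensity minus the mean of the probe for its 13867 complete probes of 24245, with column medians of -0.0126 to 0.00465. All columns were used, and 2 probes with 8 missing signals were left out. The scanner settings are not given in the sources used here.

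Intensities were processed with neqc of limma 3.58.1 in R 4.3.3 (background from detection p-values, offset 16, quantile normalization, log2). A probe had to be detected (p under 0.05) on 3 or more of 15 arrays and to carry 1 symbol in the array's annotation; the brightest probe stood for a gene, and 12302 genes remained. Limma was fitted to all arrays with a mean per group (10 residual degrees of freedom, 4.8 prior) and 8 comparisons; adjusted p (Benjamini-Hochberg over all genes within a comparison) under 0.05 was called. Where no array of a group detected a probe, its fold is a bound from the lowest signal among detected probes. The number of arrays limits the precision. The procedure was tested on simulated data. The chemokines, gene lists and motifs were chosen with earlier results of these data known. All probes of the 5 genes are named; other CC chemokine and receptor genes that passed the filter are given with values, further lists by counts, and for each chemokine the 5 genes of highest correlation. Examples from the protease, NF-kB and proteoglycan lists were picked after their values were seen. Promoters and neighbouring genes came from RefSeq tables, aligned with Biopython 1.88. Alternatives changed the background correction, normalization, source of values, filter, probe, groups fitted, replicate block, array weights, variance model and arrays.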

Additional observations from a re-analysis of the deposited data

How the results depend on the processing

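Of 720 single chemokine differences recomputed without some arrays, 678 kept their direction and side of the threshold (or, untested, moved by less than 1 SD) and 42 did not (28 lost the call, 1 gained it, 9 moved, 4 turned). Under other settings 399 of 444 did so and 45 did not (5 lost the call, 12 gained it, 27 moved, 1 turned). The 5 calls in the combination against LY294002 and the 5 against DMSO numbered 4 or 5 in all 11 other settings and in the 18 fits that left out arrays; in the deposited value table CCL2 has no value in the combination. For LY294002 against DMSO the count was 2 instead of 1, with CCL2 added, under quantile normalization without background correction, normexp, the log2 of the deposited signals, the strict filter, array weights and the deposited value table, and leaving out arrays it was 1 to 2. For the interaction the count was 2 instead of 0 under quantile normalization without background correction and with the log2 of the deposited signals, with CCL3 and CCL3L3 added, and 1 under normexp and in the deposited value table, with CCL3L3 added (adjusted p = 0.00673 and 0.00198). For the combination against 100 nM AG014699 it was 1 instead of 3 when only the groups compared were fitted, where CCL3 had an adjusted p of 0.0846 and CCL20 of 0.165, and 0 to 3 when arrays were left out. CCL20 also missed the threshold there with no filter (0.0563), every probe tested (0.0679) and array weights (0.0585). The difference of CCL5 between the doses, -0.02, turned to 0.173 on the other CCL5 probe and ranged from -0.192 to 0.138 when arrays were left out. The 100 nM differences from DMSO of CCL3 and CCL3L3 were 2.62 and 2.86 on the deposited signals. The cause of these shifts was not tested.

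Arrays of the same replicate number correlated in their deviations from the group means at -0.07 to 0.32 (median 0.16, 21 of 30 pairs above 0.1), and those of different numbers at -0.30 to 0.13 (median -0.09, 4 of 60 above 0.1). Same-numbered arrays were thus more alike, but the labels name no shared batch and not every pair was above 0.1, so the numbers were not used as pairs in the main results. With the replicate number as a block the counts of called chemokines stayed at 1, 5, 3, 5 and 0. A block for the slide was not run, because the files used here give no slide. Signals near background, as of CCL2 at 100 nM AG014699, limit the size of a fold that can be read.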
